A study of Mus musculus with 18 samples.

Results

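The 10 genes described here, Csf1r, Adgre1, Cd68, Lyz2, Mrc1, Cd163, Ccr2, Ly6c2, Cd14 and Arg1, are genes by which monocytes and macrophages are commonly recognised. They are given by name, with no cut on their measured values, but were chosen with earlier results of these data known. They were found by matching the Ensembl gene IDs of the count tables to GENCODE M21 symbols, which gave 10 members among 41605 listed genes. All 10 passed the filter on low counts and were tested with 16836 genes in all. RNA was sequenced from the skin of C57BL/6 mice 8 to 12 weeks old. There were 18 libraries, 6 labelled PBS (phosphate-buffered saline, the control), 6 labelled detergent A and 6 labelled detergent B, where both detergents are household laundry detergents. No genetic change is named for any group, and dose, duration and body site are not given in the labels. Whether each library is its own animal is not stated either, so the spread that the p-values rest on is one between samples and may be technical.

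Blood monocytes arise in bone marrow and enter skin, where they can turn into macrophages or dendritic cells, while other dermal macrophages are long-lived residents. Survival of macrophages depends on the receptor that Csf1r encodes, which binds the cytokines CSF1 and IL-34, and recruitment of monocytes depends on the chemokine receptor that Ccr2 encodes. Resident dermal macrophages are rich in the scavenger receptors encoded by Mrc1 (CD206) and Cd163, and inflamed skin gains monocytes that carry Ly6C. In whole skin these cells are a minority, so that fewer cells of a type and less RNA per cell cannot be told apart.

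Total counts ranged from 17312623 to 29599018 per library. Levels are given as CPM, the counts of a gene per 1000000 counts of its library, after TMM scaling of library sizes. Hair keratin genes varied widely between the libraries and between the groups. Their score, the mean log2 CPM of 12 genes relative to the PBS mean, ran from -2.59 to 1.79 in PBS, from -4.90 to 0.46 in detergent A and from -4.47 to -0.37 in detergent B. None of the 12 passed the test in any comparison. At an unadjusted p under 0.05 there were 11 of 12 for detergent B against PBS (10 lower and 1 higher), where 23.3% of all genes tested were. For detergent A against PBS there were 6 of 12 (5 lower and 1 higher), against 18.8% of all genes. The score averages all 12, whichever way they went. The leukocyte gene Ptprc, which encodes CD45, was at 34.8 ± 10.8 CPM in PBS, 29.8 ± 7.71 in detergent A and 33.6 ± 5.94 in detergent B (SD, n = 6 each).

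The question of the series is what each detergent changes in skin relative to PBS. For none of the 10 genes did edgeR's quasi-likelihood test call a difference. The ranges of the groups also overlapped for each of the 10 in every comparison. The share of all tested genes that overlap was not computed, so whether this overlap is particular to the 10 cannot be said. For detergent A against PBS 0 of 10 passed an adjusted p of 0.05, where 0.19% of all genes tested passed (0.0535% higher and 0.137% lower). For detergent B against PBS 0 of 10 passed, against 3.05% of all genes (1.97% higher and 1.08% lower). For detergent B against detergent A 0 of 10 passed, and 0% of all genes did. At an unadjusted p under 0.05 the count was likewise 0 of 10 in all 3 comparisons, against 18.8%, 23.3% and 3.27% of all genes in the same order. DESeq2, limma's voomWithQualityWeights and each of the other settings tried also called 0 of 10. Over all genes these settings called 0 to 4098 for detergent A and 0 to 5106 for detergent B against PBS, and 0 between the detergents.

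**Figure D1:**
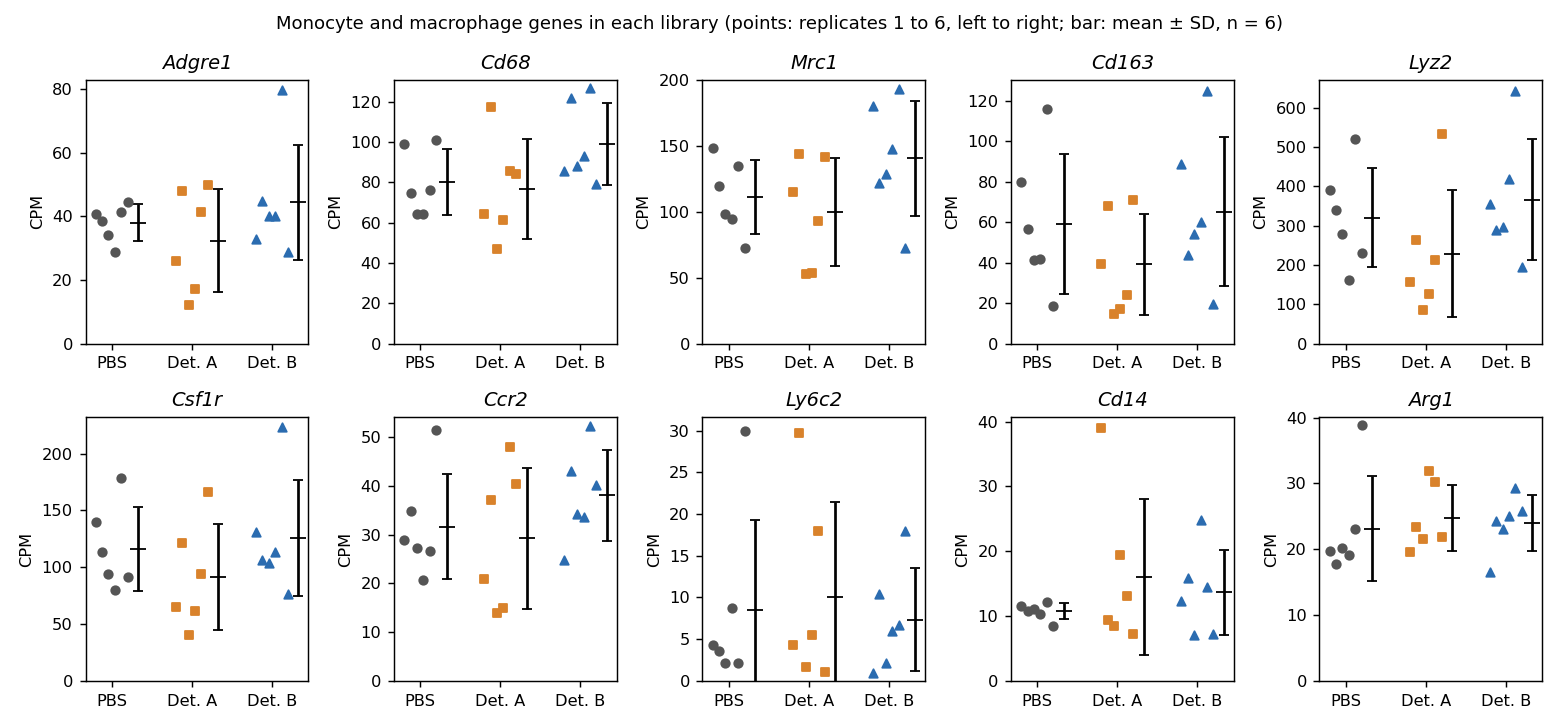
TMM-scaled CPM (y axis, linear, from 0) of the 10 genes in every library, by group (x axis), with replicates 1 to 6 from left to right and the group mean ± SD (n = 6) as a bar beside them; the lower ends of the SD bars of Ly6c2 that would lie below 0 are not drawn. Adgre1 runs from 12.1 in detergent A replicate 3 to 79.6 in detergent B replicate 5.

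Csf1r (chromosome 18, 61100598 to 61132149, GRCm38, plus strand) encodes the CSF1 receptor, which defines the macrophage lineage. Lowest, median and highest levels were 80.0, 104 and 179 CPM in PBS, 40.2, 79.6 and 166 in detergent A, and 76.5, 110 and 223 in detergent B. The 223 CPM were those of detergent B replicate 5, and the other 5 detergent B libraries lay within the PBS range or just under it. Group means were 116 ± 37.2, 91.4 ± 46.4 and 126 ± 50.8 CPM (SD, n = 6 each), with a log2 fold change of -0.35 ± 0.31 (SE, adjusted p = 0.559, edgeR) for detergent A and 0.11 ± 0.31 (adjusted p = 0.855) for detergent B against PBS. The end of Csf1r shares 873 bases with Hmgxb3 on the opposite strand, and whether strand was used in counting is not given in the sources used here.

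Adgre1 (chromosome 17, 57358691 to 57483527, plus strand) encodes the surface protein F4/80, the most used mouse macrophage marker. Its levels were 28.8, 39.7 and 44.6 CPM (lowest, median, highest) in PBS, 12.1, 33.6 and 49.8 in detergent A, and 28.7, 40.2 and 79.6 in detergent B. Detergent A replicates 3, 4 and 1, at 12.1, 17.3 and 25.9 CPM, were below every PBS and detergent B library, and replicate 5 of detergent B was above all others. The log2 fold change was -0.23 ± 0.30 (adjusted p = 0.709, edgeR) for detergent A and 0.22 ± 0.30 (adjusted p = 0.682) for detergent B against PBS. The 95% interval for detergent A ran from -0.86 to 0.40, that is, from 0.552-fold to 1.32-fold of the PBS level.

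Cd68 (chromosome 11, 69664213 to 69666153, minus strand) encodes a lysosomal membrane protein of phagocytes. It was at 64.2, 75.7 and 101 CPM (lowest, median, highest) in PBS, 46.9, 74.3 and 118 in detergent A, and 79.1, 90.7 and 127 in detergent B. The detergent B libraries sat in the upper part of the range, and 4 of 6 PBS libraries lay below the lowest of them. With detergent B the log2 fold change from PBS was 0.31 ± 0.19 (95% interval -0.09 to 0.71, adjusted p = 0.332, edgeR). Against detergent A it was 0.37 ± 0.19 (-0.03 to 0.77), the smallest unadjusted p of the 30 tests of these genes (0.0677), with an adjusted p of 0.989.

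Lyz2 (chromosome 10, 117277331 to 117282321, minus strand) encodes lysozyme M, the enzyme of phagocyte granules whose locus drives the LysM-Cre line. It was the most abundant of the 10 genes, with lowest, median and highest levels of 162, 309 and 520 CPM in PBS, 84.8, 184 and 532 in detergent A, and 195, 327 and 643 in detergent B. Within detergent A a single library, replicate 6 at 532 CPM, stood above the PBS mean of 320, and the other 5 were at 84.8 to 263. Log2 fold changes were -0.48 ± 0.38 (adjusted p = 0.507, edgeR) for detergent A and 0.19 ± 0.38 (adjusted p = 0.792) for detergent B against PBS. Without detergent A replicate 6 the estimate for detergent A was -0.93 (adjusted p = 0.108). Lyz2 has a close relative beside it, Lyz1, the lysozyme gene best known from Paneth cells of the gut. The coding sequences of both are 447 bases long in GENCODE M21, differ at 22 bases (95.1% identity) and share an unbroken run of 118 bases. How reads that match both genes were counted is not given in the sources used here, so the split between them is uncertain. The first 150 coding bases, spliced, are shown because only at differing bases, here 14, can the genes be told apart; these are in capitals (Lyz2 at chr10:117280792-117282242 and Lyz1 at chr10:117291180-117292838, GRCm38, minus strand, introns left out).
Lyz2: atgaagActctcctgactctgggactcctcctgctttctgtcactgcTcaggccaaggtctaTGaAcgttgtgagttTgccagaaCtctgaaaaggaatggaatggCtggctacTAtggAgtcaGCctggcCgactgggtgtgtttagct
Lyz1: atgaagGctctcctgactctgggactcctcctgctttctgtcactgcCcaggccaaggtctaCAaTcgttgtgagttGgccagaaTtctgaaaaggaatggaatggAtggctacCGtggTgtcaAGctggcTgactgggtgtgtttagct
Lyz1 averaged 16.3 ± 13.7 CPM over the 18 libraries (SD), against 305 ± 151 for Lyz2. Once group means were removed, log2 CPM of the pair moved together across the libraries (Pearson r 0.89, adjusted p = 4e-05, Spearman rho 0.81, adjusted p = 0.00032, permutation within groups, 2 relations, r 0.81 without the 2 libraries farthest from the median of Lyz1).

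Mrc1 (chromosome 2, 14229392 to 14332057, plus strand) encodes the mannose receptor CD206. Its lowest, median and highest levels were 72.2, 109 and 149 CPM in PBS, 52.5, 104 and 144 in detergent A, and 72.8, 138 and 193 in detergent B. PBS replicate 6 and detergent B replicate 6 were the lowest libraries of their groups, at nearly equal levels. Against PBS the log2 fold change was -0.15 ± 0.27 (adjusted p = 0.792, edgeR) with detergent A and 0.34 ± 0.27 (95% interval -0.22 to 0.90, adjusted p = 0.461) with detergent B.

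Cd163 (chromosome 6, 124304656 to 124330527, plus strand) encodes the scavenger receptor for haptoglobin-hemoglobin complexes. Levels were 18.5, 49.3 and 116 CPM (lowest, median, highest) in PBS, 14.7, 31.8 and 71.0 in detergent A, and 19.3, 57.0 and 125 in detergent B. Every group held libraries under 20 CPM and libraries above 70, which makes Cd163 much more variable than Mrc1. The spread was a coefficient of variation of 60.0% over the 18 libraries, against 34.0% for Mrc1 and 25.8% for Cd68. Detergent A gave a log2 fold change of -0.59 ± 0.47 (95% interval -1.59 to 0.40, adjusted p = 0.512, edgeR), and detergent B one of 0.14 ± 0.47 (-0.85 to 1.13, adjusted p = 0.884).

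Ccr2 (chromosome 9, 124101950 to 124113557, plus strand) encodes the receptor through which CCL2 and related chemokines draw monocytes out of the marrow and into tissue. It was at 20.7, 28.1 and 51.5 CPM (lowest, median, highest) in PBS, 14.0, 29.0 and 48.0 in detergent A, and 24.9, 37.2 and 52.3 in detergent B. Detergent A held both the lowest libraries of the series, replicates 3 and 4 at 14.0 and 15.1, and 3 libraries above 37. Log2 fold changes were -0.11 ± 0.29 (adjusted p = 0.868, edgeR) and 0.27 ± 0.29 (adjusted p = 0.600) for detergents A and B against PBS.

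Ly6c2 (chromosome 15, 75108158 to 75111970, minus strand) encodes the Ly6C protein that marks classical monocytes. It was the least abundant member per length and the most variable one. From the lowest library, detergent B replicate 1 at 0.988 CPM (19 reads), to the highest, PBS replicate 6 at 30 CPM (537 reads), it spanned 30.4-fold. Within groups the lowest, median and highest levels were 2.11, 3.93 and 30 CPM in PBS, 1.07, 4.89 and 29.7 in detergent A, and 0.988, 6.34 and 17.97 in detergent B. Each group thus held 1 or 2 libraries above 15 CPM (PBS replicate 6, detergent A replicates 2 and 5, detergent B replicate 6) among libraries mostly under 9. The intervals were accordingly wide, at -1.46 to 1.96 on the log2 scale for detergent A and -1.91 to 1.53 for detergent B against PBS (adjusted p = 0.897 and 0.915, edgeR). A neighbouring gene, Ly6c1, which endothelial cells express, is nearly the same in sequence. Both have 396 coding bases, which differ at 9 (97.7% identity) and share a run of 188. Of the first 150 coding bases, shown for the same reason as those of the lysozymes, 6 differ and are in capitals (Ly6c2 at chr15:75110548-75111667 and Ly6c1 at chr15:75047390-75048511, GRCm38, minus strand, introns left out).
Ly6c2: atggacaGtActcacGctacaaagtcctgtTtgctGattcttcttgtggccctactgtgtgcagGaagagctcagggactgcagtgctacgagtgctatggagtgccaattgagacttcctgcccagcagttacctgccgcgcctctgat
Ly6c1: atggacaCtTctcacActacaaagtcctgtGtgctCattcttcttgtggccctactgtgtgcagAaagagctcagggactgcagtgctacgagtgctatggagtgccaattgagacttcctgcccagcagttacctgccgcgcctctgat
Ly6c1 had 105 ± 30.6 CPM over the 18 libraries (SD), against 8.61 ± 9.24 for Ly6c2. The ranges of the pair did not meet, since the lowest Ly6c1 level was 67.5 CPM. They moved together in part (r 0.66, adjusted p = 0.00724, rho 0.65, adjusted p = 0.00845, permutation within groups, r 0.62 without the 2 farthest libraries), and how much of this comes from reads that fit both genes was not tested.

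Cd14 (chromosome 18, 36725067 to 36726798, minus strand) encodes the co-receptor that hands bacterial lipopolysaccharide to Toll-like receptor 4. In PBS it was the most even of the 10 genes, with 8.55 CPM as its lowest and 12.2 as its highest level (mean 10.8 ± 1.26, SD, n = 6). In detergent A its levels ran from 7.18 over a median of 11.3 to 39.0 CPM, and in detergent B from 7.14 over 13.4 to 24.8. Detergent A replicate 1, detergent B replicate 4 and detergent A replicate 4 (39.0, 24.8 and 19.3 CPM) were the highest of the 18, and 2 libraries of each treated group were below the lowest PBS library. Log2 fold changes from PBS were 0.58 ± 0.37 (95% interval -0.19 to 1.34, adjusted p = 0.408, edgeR) for detergent A and 0.34 ± 0.37 (-0.43 to 1.11, adjusted p = 0.603) for detergent B. Without detergent A replicate 1 the log2 fold change for detergent A was 0.10.

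Arg1 (chromosome 10, 24915221 to 24927484, minus strand) encodes arginase 1, the liver's urea cycle enzyme, which is also a textbook gene of macrophages activated by interleukin 4 and is made by other cells too. It was at 17.7, 20.0 and 38.9 CPM (lowest, median, highest) in PBS, 19.6, 22.6 and 31.9 in detergent A, and 16.5, 24.6 and 29.4 in detergent B. Over the 18 libraries it varied least of the 10 genes, 2.35-fold between the extremes, and the highest level was that of a PBS library, replicate 6. The log2 fold change was 0.10 ± 0.18 (95% interval -0.28 to 0.48, adjusted p = 0.804, edgeR) for detergent A and 0.06 ± 0.18 (-0.33 to 0.44, adjusted p = 0.883) for detergent B.

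**Figure D2:**
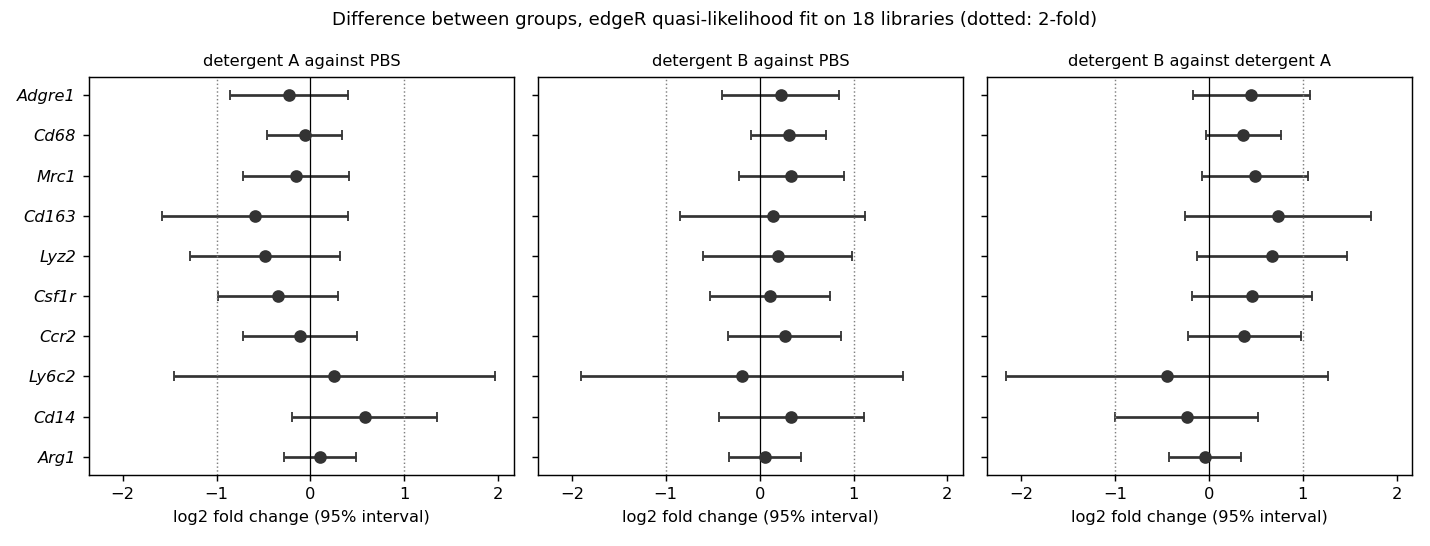
Log2 fold change (x axis) of each gene (y axis) in the 3 comparisons, from one edgeR quasi-likelihood fit to 18 libraries; points are estimates, bars 95% intervals, and dotted lines mark 2-fold. Every interval crosses 0, and those of Ly6c2 and Cd163 are the widest, with standard errors of 0.82 and 0.47.

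Set side by side, the fold changes of the 10 genes had medians of -0.13 for detergent A and 0.21 for detergent B against PBS, and 0.42 for detergent B against detergent A, on the log2 scale. Over all genes tested the medians were -0.01, -0.01 and -0.00. Of the 10 estimates 3, 9 and 7 were above 0 in the same order. Over all genes tested 8141, 8204 and 8395 of 16836 were. Several of the 10 genes co-varied within groups, as described below, so their signs are not independent. The 9 of detergent B became 4 without detergent B replicate 5, 6 with voomWithQualityWeights and 8 with the hair keratins covariate. These comparisons share libraries, and no single member passed in any. The intervals lay within 2-fold in both directions for 6 genes with detergent A, 7 with detergent B and 3 between the detergents. For the others a 2-fold difference was not resolved.

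Per kilobase of exon, which allows levels of different genes to be compared, Lyz2 was highest at 232 ± 115 CPM per kb and Cd68 second at 67.9 ± 17.5 (SD over 18 libraries). Csf1r at 19.2 ± 7.78 and Mrc1 at 18.4 ± 6.27 followed. Adgre1 (11.8 ± 4.47), Arg1 (10.8 ± 2.52) and Cd163 (9.96 ± 5.98) came next. Cd14 at 7.80 ± 4.50, Ccr2 at 4.88 ± 1.72 and Ly6c2 at 3.14 ± 3.37 CPM per kb were the lowest. From Csf1r down the spreads of neighbours in this order overlap, and no difference between genes was tested.

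Single libraries stood apart for several genes at a time. Detergent A replicate 3 had the lowest level of the 18 libraries for Csf1r, Adgre1, Cd68, Lyz2, Mrc1, Cd163 and Ccr2, and detergent B replicate 5 the highest for the same 7 genes. Between these libraries the ratio was 8.51 for Cd163, 7.59 for Lyz2, 6.59 for Adgre1, 5.55 for Csf1r, 3.72 for Ccr2, 3.68 for Mrc1 and 2.71 for Cd68. Neither library stood at an end of the range for Ly6c2, Cd14 or Arg1. Their total counts, 20784410 and 21890615, were alike.

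How the genes varied together within groups was described by Pearson's r of log2 CPM with each group's mean removed, over 18 libraries and 45 pairs. The p-values are from 100000 permutations within groups, adjusted over the 45 pairs, and 15 pairs passed 0.05. Among Csf1r, Adgre1, Cd68, Lyz2, Mrc1 and Cd163 the 15 pairs had r from 0.45 to 0.97 with a median of 0.83, and 12 passed. Without the 2 farthest libraries the lowest r among the 15 was 0.24, for Cd68 with Cd163, a pair whose r within PBS was -0.15. Of the 30 other pairs, with r from -0.42 to 0.84 and a median of 0.09, 3 passed.

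The tightest pair was Lyz2 with Csf1r, the granule enzyme and the lineage receptor (r 0.97, rho 0.97, adjusted p = 0.00015 for r, permutation). Its r was 0.96 within PBS, 0.98 within detergent A and 0.95 within detergent B. Next came the scavenger receptors Mrc1 and Cd163 (r 0.95, rho 0.91, adjusted p = 0.00015, permutation), at 0.93 without the 2 libraries farthest from the median of Mrc1. Adgre1 went most closely with Csf1r and Cd68 (r 0.87 for each, adjusted p = 0.000514 and 0.00015, permutation). Adgre1 and Mrc1, at r 0.73 over all libraries (adjusted p = 0.0208, permutation), had r 0.12 within PBS, 0.90 within detergent A and 0.62 within detergent B, a difference that was not tested. In PBS replicate 6 the highest Adgre1, Cd68 and Ccr2 of the group stood beside its lowest Mrc1 and Cd163.

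**Figure D3:**
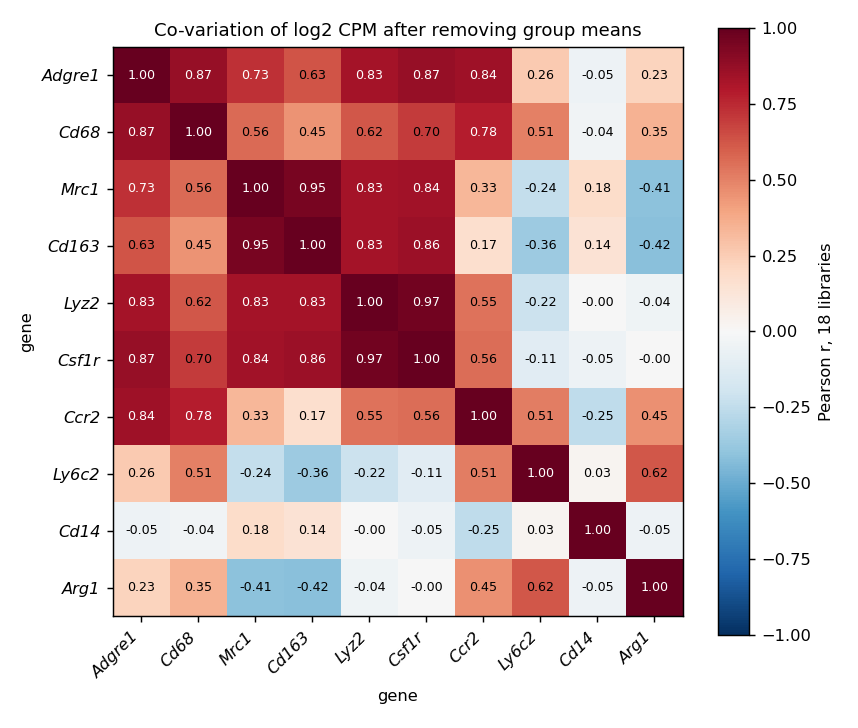
Pearson r of log2 CPM between each pair of the 10 genes (both axes) after group means were removed, over 18 libraries; colour and printed number give r. Over all 18 libraries Adgre1, Cd68, Mrc1, Cd163, Lyz2 and Csf1r form a block with r of 0.45 or more, and Cd14 has no r above 0.18 with any other gene. Values within single groups can differ and are not shown.

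Sequences just upstream of the transcription start are shown for the 4 genes of that co-varying block that have an entry in RefSeq's promoter table for GRCm38.p6. Capitals mark matches to GAGGAA, a core bound by the myeloid ETS factor PU.1, and to the AP-1 site, whose letters are TGAGTCA. Both strands were searched, so that a match may be printed as its reverse complement, and no match overlaps another in these windows. Each run ends before the annotated start of the gene, at chr11:69666171-69666420 (minus) for Cd68, chr2:14229164-14229391 (plus) for Mrc1, chr6:124304401-124304650 (plus) for Cd163 and chr10:117282322-117282522 (minus) for Lyz2.
Cd68 upstream: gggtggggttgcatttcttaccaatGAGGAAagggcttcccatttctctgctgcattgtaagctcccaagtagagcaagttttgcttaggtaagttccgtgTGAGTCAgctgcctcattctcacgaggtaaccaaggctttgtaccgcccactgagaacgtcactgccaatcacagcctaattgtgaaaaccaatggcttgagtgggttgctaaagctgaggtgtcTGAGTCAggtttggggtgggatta
Mrc1 upstream: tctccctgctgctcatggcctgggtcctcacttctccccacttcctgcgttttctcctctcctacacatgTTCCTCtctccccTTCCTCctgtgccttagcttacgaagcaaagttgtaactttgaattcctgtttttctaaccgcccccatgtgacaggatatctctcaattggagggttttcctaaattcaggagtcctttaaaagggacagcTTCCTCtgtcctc
Cd163 upstream: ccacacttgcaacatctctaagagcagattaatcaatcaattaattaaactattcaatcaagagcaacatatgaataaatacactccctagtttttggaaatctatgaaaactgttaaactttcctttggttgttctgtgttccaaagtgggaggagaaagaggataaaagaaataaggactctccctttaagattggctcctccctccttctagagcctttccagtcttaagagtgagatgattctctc
Lyz2 upstream: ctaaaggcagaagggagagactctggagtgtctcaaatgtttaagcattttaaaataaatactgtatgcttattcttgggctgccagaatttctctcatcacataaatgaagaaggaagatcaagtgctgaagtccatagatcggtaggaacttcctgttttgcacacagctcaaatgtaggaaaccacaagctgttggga
In the 250 bases before the RefSeq start, GAGGAA was found 1 time for Cd68 and 3 times for Mrc1, and TGAGTCA 2 times for Cd68. Neither motif was found in the windows of Cd163, Lyz2 or Ccr2, and the 2 Ly6c2 entries held GAGGAA 1 and 2 times and no TGAGTCA. Of all 32817 RefSeq promoters, 23.3% held GAGGAA and 4.46% held TGAGTCA, so these matches describe the letters only.

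Ccr2 went with Adgre1 (r 0.84, rho 0.82, adjusted p = 0.00184, permutation) and Cd68 (r 0.78, rho 0.75, adjusted p = 0.0052), and its r with Cd163 was 0.17 (adjusted p = 0.707). Its level followed Ptprc, the general leukocyte gene, with r 0.86 and rho 0.89 (adjusted p = 0.0005 and 0.0004, permutation, 20 relations), and with r 0.80 without the 2 libraries farthest from the median of Ptprc. Adgre1 and Cd68 also followed Ptprc (r 0.80 for each, adjusted p = 0.0004 and 0.0018, permutation). Lyz2 and Csf1r had r of 0.57 and 0.56 with it (adjusted p = 0.0822 for each) and Cd14 had r of -0.13 (adjusted p = 0.729). Some of these values differed between groups, which was not tested. For Lyz2 and Csf1r with Ptprc, r was 0.05 and -0.11 within PBS. It was 0.92 and 0.97 within detergent A and 0.68 and 0.69 within detergent B. For Ccr2 with Cd163 r was -0.56 within PBS, 0.67 within detergent A and -0.04 within detergent B.

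Ly6c2 passed with 1 of the other 9 genes, Arg1 (r 0.62, rho 0.59, adjusted p = 0.0319 and 0.044, permutation, r 0.58 without the 2 farthest libraries). Within groups this r was 0.74 in PBS, 0.43 in detergent A and 0.78 in detergent B. PBS replicate 6 was the highest library of its group for both genes.

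Arg1 ran against the hair keratins score. After group means were removed r was -0.73 and rho -0.66 (adjusted p = 0.0063 and 0.0266, permutation, 20 relations), and r was -0.76 once the 2 libraries with scores farthest from the median were left out. Within PBS r was -0.86, within detergent A -0.72 and within detergent B -0.74, from 6 libraries each. When edgeR was given this score as a covariate, the Arg1 estimates changed sign, to -0.21 for detergent A and -0.28 for detergent B against PBS, and neither passed. The score also ran lower in both detergent groups than in PBS, so such a fit cannot fully tell the score and the detergents apart. With this covariate the detergent B estimates went from 0.34 to 0.80 for Mrc1 and from 0.14 to 0.97 for Cd163, and neither passed (adjusted p = 0.331 and 0.596). For Mrc1 and Cd163 r with the score was 0.57 and 0.56 (adjusted p = 0.09 and 0.0822), but within detergent B r was -0.02 and -0.05.

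**Figure D4:**
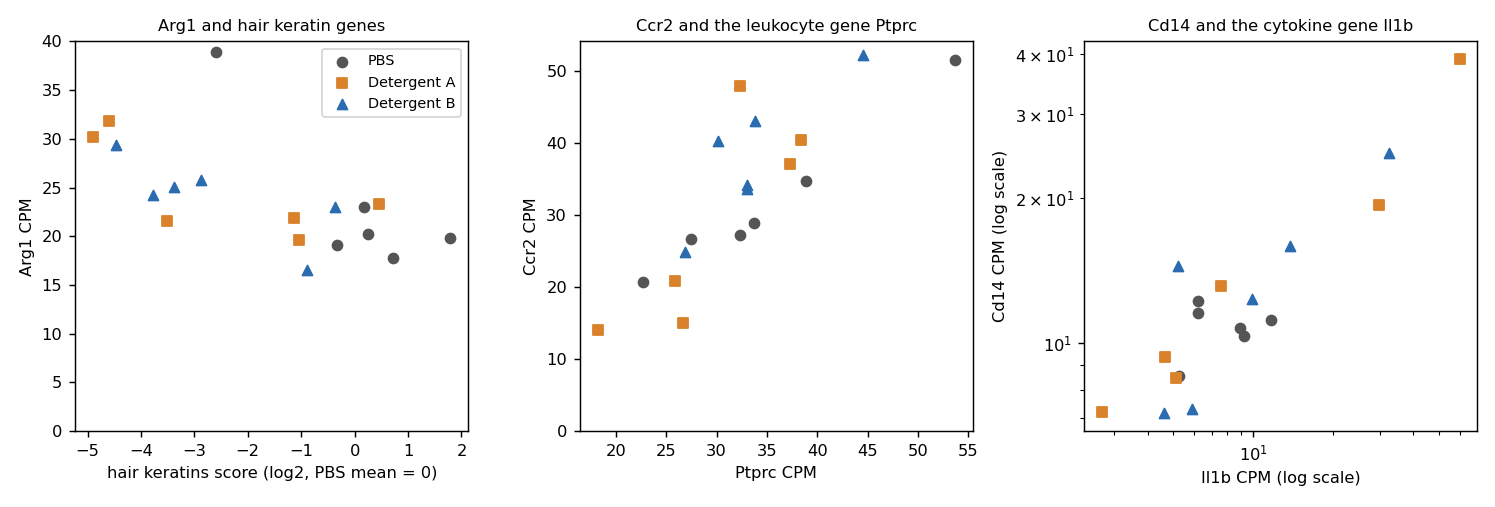
CPM of Arg1 against the hair keratins score (log2, PBS mean at 0), of Ccr2 against Ptprc CPM, and of Cd14 against Il1b CPM (both axes on a log scale), with 1 point per library in the 3 groups. Arg1 is highest where the score is low, Ccr2 rises with Ptprc, and the 3 libraries with the highest Cd14 are those with the highest Il1b.

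Over all 18 libraries Cd14 passed with none of the other 9 genes (r from -0.25 to 0.18), but r differed between groups. Within PBS it ran from -0.93 (Ly6c2) to 0.94 (Cd163). For Ly6c2 and Cd163 it was 0.16 and -0.19 within detergent A and 0.06 and 0.45 within detergent B. These differences were not tested. The 3 tested protein-coding genes whose group-centred levels were most like Cd14 over the 18 libraries were Cxcl2 (r 0.92) and Il1b (r 0.91), which encode a neutrophil chemokine and interleukin 1 beta, and Trem1 (r 0.90), a receptor of neutrophils and monocytes. Il1b was at 59.9 CPM in detergent A replicate 1, 29.9 in detergent A replicate 4 and 32.5 in detergent B replicate 4, the 3 libraries with the highest Cd14, and at 2.70 to 13.7 in the other 15. The summed level of 12 neutrophil marker genes was 258, 230 and 139 CPM in those 3 libraries and 358 in detergent B replicate 2, against 25.5 to 103 in the others. That sum ranged from 30.5 to 81.0 CPM in PBS, 25.5 to 258 in detergent A and 50.1 to 358 in detergent B. S100a8 and S100a9, which keratinocytes can also express, with Cxcr2 and Csf3r made up most of it, while the defining gene Ly6g was at 0 in 13 of 18 libraries. None of the 6 marker genes tested passed in any comparison. At an unadjusted p under 0.05 there were 2 of 6 for detergent A and 3 of 6 for detergent B against PBS, all higher. Of all genes tested 18.8% and 23.3% were, in either direction. The part of these marker genes in the Cd14 levels was not tested.

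Nearest genes by the same measure, as a description only, are given here for the other members but Mrc1. They were Selenop, Csf1r and Pltp for Lyz2 (r 0.98 to 0.97), and Selenop, Abca9 and Lyz2 for Csf1r (r 0.97 each). Cd163 was nearest to Cd209b, Cd209g and Cd209f, genes of the mouse DC-SIGN family of lectins (r 0.97 to 0.96). Adgre1 was nearest to Pirb, Hacd4 and Cybb (r 0.97 to 0.96), where Cybb encodes a subunit of the phagocyte oxidase, and Cd68 to Tmem106a, Cyth4 and Plod1 (r 0.94 to 0.92). The nearest of Ccr2 were Cd84 (r 0.96) and 2 gene IDs that share the symbol Dpep2 (r 0.95 and 0.94). Ly6c2 was nearest to Ms4a4c (r 0.94), Gm5150 and the interferon-induced gene Bst2 (r 0.89). Arg1 was nearest to Tnfaip8l3, Chat and Grik1 (r 0.91 to 0.90).

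Ligands and partners of these receptors were followed in lists chosen, like the members, with earlier results of these data known. In a list of 6 tested genes that held the CSF1 receptor ligands Csf1 and Il34, the GM-CSF receptor genes Csf2ra and Csf2rb and the transcription factor genes Irf8 and Runx1, none passed. Csf1 and Il34 had log2 fold changes of 0.21 ± 0.21 and -0.09 ± 0.21 with detergent A and -0.02 ± 0.21 and -0.00 ± 0.21 with detergent B. Among 12 CCR2 ligands and other monocyte chemokines none passed. Ccl2, the main CCR2 ligand, was at 30.8 ± 19.1 CPM in PBS, 30.6 ± 16.1 in detergent A and 30.9 ± 11.8 in detergent B (SD, n = 6 each). Ccl8, which encodes another chemokine of this family, had 92.8 ± 37.4, 70.0 ± 31.6 and 128 ± 45.5 CPM (adjusted p = 0.488 and 0.365, edgeR, each detergent against PBS).

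Around Cd14, 1 of 11 genes of TLR4, its partners, related Toll-like receptors and their adaptors passed in detergent B against PBS, where 3.05% of all genes did. Ly96, which encodes MD-2, the partner of TLR4 that binds lipopolysaccharide, was at 3.66 to 5.75 CPM in PBS, 5.44 to 6.69 in detergent A and 5.52 to 8.33 in detergent B. Its log2 fold change with detergent B was 0.55 ± 0.13, a rise that passed (adjusted p = 0.0336, edgeR), and with detergent A the estimate was 0.34 ± 0.13 (adjusted p = 0.173), which passed with voomWithQualityWeights (0.42, adjusted p = 0.0246). Direct comparison of the detergents gave no call for Ly96 (adjusted p = 0.989). In 8 of 18 fits with 1 library removed Ly96 no longer passed (each of PBS replicates 1 to 5 and detergent B replicates 2, 4 and 5, adjusted p up to 0.0973) nor did it with the hair keratins covariate, the replicate block or no filter (adjusted p up to 0.331). Tlr4 itself was at 9.39 ± 1.37, 9.69 ± 2.64 and 12.2 ± 3.02 CPM and did not pass (adjusted p = 0.248 for detergent B against PBS, edgeR).

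Around Arg1, 1 of 11 tested genes of arginine metabolism passed, again in detergent B against PBS, where 3.05% of all genes did. Slc7a2, which encodes the arginine transporter CAT2, rose with detergent B from 22.5 ± 3.41 to 40.4 ± 13.9 CPM, a log2 fold change of 0.85 ± 0.22 (adjusted p = 0.0451, edgeR), and was at 34.1 ± 9.46 CPM with detergent A (adjusted p = 0.157, edgeR, and 0.0278 with voomWithQualityWeights). Slc7a2 no longer passed in 11 of 18 fits with 1 library removed (each of PBS replicates 1 to 5, detergent A replicates 1 and 5 and detergent B replicates 2, 4, 5 and 6, adjusted p up to 0.111) and in 3 of 9 other settings. Arg2, the mitochondrial arginase gene, was at 16.8 ± 4.34 CPM in PBS, 16.3 ± 8.89 in detergent A and 17.0 ± 4.61 in detergent B. Nos2, which encodes the inducible nitric oxide synthase that competes for arginine, was at 1.11 CPM or less in every library.

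In the broader lists no macrophage gene passed. Of 34 pan macrophage and phagocyte genes 0 passed, with median log2 fold changes of -0.23 for detergent A and 0.14 for detergent B against PBS and 0.34 between the detergents. Its most abundant members were the protease gene Lgmn and the complement genes C1qb and C1qc, at 141 ± 40.8 CPM for C1qb in PBS, 118 ± 68.6 in detergent A and 171 ± 69.0 in detergent B. The 20 resident dermal macrophage genes had medians of -0.23, 0.19 and 0.51 and 0 calls, and the 19 tested monocyte genes -0.12, -0.11 and 0.16 and 0 calls. For 10 alternative activation genes the medians were -0.16, 0.25 and 0.50 with 0 calls, where Retnla, which encodes the secreted protein RELM alpha, had 73.3 ± 73.3 CPM in PBS, 34.7 ± 70.9 in detergent A and 51.0 ± 41.8 in detergent B. The 10 genes of hemoglobin scavenging, the task of Cd163, gave 0 calls, and Hmox1, which encodes heme oxygenase 1, was at 219 ± 41.4, 273 ± 79.5 and 340 ± 133 CPM (adjusted p = 0.50 and 0.137, edgeR, each detergent against PBS). Lists of dendritic, mast, T and B, endothelial, fibroblast and skeletal muscle genes also gave 0 calls. Of 8 keratinocyte genes 1 passed, Krt1, in detergent B against PBS, where 3.05% of all genes did. Krt1 rose with detergent B from 4523 ± 1376 to 12567 ± 3337 CPM (log2 fold change 1.47 ± 0.28, adjusted p = 0.0159, edgeR). With detergent A Krt1 was at 9070 ± 4075 CPM, above the PBS mean in 6 of 6 libraries (log2 fold change 1.004 ± 0.278, adjusted p = 0.0848, edgeR), and passed with DESeq2 (adjusted p = 0.0117), with voomWithQualityWeights (0.0082) and without PBS replicate 6 or detergent A replicate 2 (0.0416 and 0.0304). The call for detergent B was lost without PBS replicate 2, without PBS replicate 3 and with the hair keratins covariate (adjusted p up to 0.216). The keratinocyte list's summed level ranged from 16859 to 33715 CPM in PBS, 22426 to 54910 in detergent A and 29085 to 50060 in detergent B, and its part in the levels of the 10 genes was not tested.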

How the data were processed

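The authors deposited raw counts per gene, whole numbers whose sums vary from library to library, made with STAR, featureCounts and GRCm38.p5, per the submitters' processing notes. Not given in the sources used here are versions, annotation release, strand setting and treatment of multiply matching reads. GENCODE M21 gave symbols for 41519 of 41605 IDs, and CPM per kb uses the union of a gene's exons.

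All 18 libraries, 6 per group, entered an edgeR 4.0.16 (R 4.3.3) quasi-likelihood fit (group only, TMM, default filter, robust, 15 residual degrees of freedom). P-values were Benjamini-Hochberg adjusted over the 16836 genes kept (threshold 0.05), and the standard error is the log2 fold change divided by the square root of F. No pair of libraries agreed within sampling noise (chi-square of at least 8.89 per gene). Correlations use log2 CPM (prior count 2).

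The members and gene lists were chosen with earlier results of these data known. Named were all members, each list's genes past the threshold or some of its most abundant, the 3 genes most like each member (those of Mrc1 are not reported here), and partners or paralogs as context. Alternatives were DESeq2 1.42.0, limma 3.58.1 (voomWithQualityWeights), RLE size factors, 2 other filters, a non-robust fit, a replicate block, a hair keratins covariate, the 12 libraries compared, and each library left out.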

Additional observations from a re-analysis of the deposited data

Results flagged for a closer look

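In 4 of 30 gene and group combinations examined, 1 library stood far from the other 5 of its group by Dixon's test at the 95% level. Its nominal rate of about 1 in 20 holds for independent, normally distributed values. The test was run on CPM without a log scale, and several of these genes co-vary. The 4 of 30 can therefore not be set against that rate. Adgre1 in detergent B replicate 5 was at 79.6 CPM, with the other detergent B libraries at 28.7 to 44.7. Csf1r in the same library was at 223 CPM, against 76.5 to 131 in the rest of the group. Ly6c2 in PBS replicate 6 was at 30 CPM, against 2.11 to 8.68 in the other PBS libraries. Arg1 in PBS replicate 6 was at 38.9 CPM, against 17.7 to 23.0. PBS replicate 6 also had the lowest hair keratins score of its group, -2.59 against -0.33 to 1.79, and the highest Ptprc level, 53.7 CPM.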

How the results depend on the processing

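Under all 27 alternative settings 0 of 10 members passed in any of the 3 comparisons, and the lowest adjusted p was 0.0709 (Lyz2, detergent A, voomWithQualityWeights). Over all genes, detergent A against PBS called 32 genes in edgeR, 809 with DESeq2, 75 with a filter of 1 CPM in 6 libraries and 4098 with voomWithQualityWeights, and detergent B called 514, and 1425 with DESeq2, 251 with no filter and 5106 with voomWithQualityWeights. With the hair keratins covariate both counts were 0 in edgeR (1661 and 1732 genes at an unadjusted p under 0.05). That score itself ran lower in both detergent groups than in PBS. A fit with this covariate therefore cannot fully tell the score and the detergents apart. Leaving out 1 library gave 0 to 888 genes for detergent A (888 without PBS replicate 6), 28 to 1888 for detergent B (28 without PBS replicate 3, 1888 without PBS replicate 6) and 0 to 0 between the detergents. Detergent B against detergent A called 0 genes in every setting (550 at an unadjusted p under 0.05 in edgeR). The cause was not tested.

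Signs of some uncalled estimates reversed. With voomWithQualityWeights, detergent B against PBS gave log2 fold changes of -0.32 for Cd163, -0.010 for Lyz2, -0.028 for Csf1r, 0.84 for Ly6c2 and -0.012 for Cd14, and Ly6c2 between the detergents was 0.11. With the hair keratins covariate detergent A gave 0.19 for Mrc1 and -0.21 for Arg1, and detergent B gave -0.28 for Arg1. The same covariate kept the sign but moved detergent B to 0.80 for Mrc1, 0.97 for Cd163, 0.52 for Lyz2 and 0.34 for Csf1r, and detergent A to -0.06 for Cd163 and -0.26 for Lyz2. With 1 library left out, estimates for detergent A ranged from -0.22 to 0.048 for Cd68, -0.31 to 0.081 for Ccr2 and -0.47 to 1.26 for Ly6c2. For detergent B they ranged from -0.027 to 0.32 for Adgre1, -0.15 to 0.45 for Cd163, -0.041 to 0.39 for Lyz2, -0.13 to 0.28 for Csf1r, -0.69 to 0.82 for Ly6c2 and -0.011 to 0.26 for Arg1. Without detergent B replicate 5 the first 4 of these were the lowest values named, all below 0. Between the detergents they ranged from -0.51 to 0.24 for Cd14 (0.24 without detergent A replicate 1), -0.94 to 0.29 for Ly6c2 and -0.11 to 0.040 for Arg1. RLE size factors reversed no member.

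Replicate numbers are shared between groups in the labels, which do not say whether they pair the libraries. Correlations of same-numbered libraries of different groups ran from -0.35 to 0.55. Their median was 0.02, against -0.06 for libraries with other numbers, and 6 of 18 libraries correlated best with their own number. These values cannot decide whether the libraries were paired. With the replicate block detergent A called 0 genes in edgeR (3332 at an unadjusted p under 0.05), detergent B 377 and 0 of 10 members passed. Low counts limit Ly6c2 most, with as few as 19 reads in a library.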
